A study of Mus musculus with 6 samples.

Results

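Expression of 46 genes of p53 signalling and regulated cell death was followed in 6 libraries of the mouse fibrosarcoma line UV2237M. All 46 symbols of the list were found among the 23183 in the deposited tables, and 44 had enough counts to be tested. The exceptions were *Bik* and *Cdkn2b*. The list was parted by function into p53 and its regulators (3 genes), p53 targets (12), the Bcl-2 family (12), caspases with the apoptosome and their inhibitors (10), lytic death genes (6), and Rb with the Ink4 locus (3). *Bax*, *Bbc3* and *Pmaip1* are p53 targets too and were counted with the Bcl-2 family. The 3 untreated tumours received nothing. The 3 treated tumours were given gold nanoclusters (GNC), small gold particles that warm under light, at day 1 and day 7, with near-infrared irradiation. Cell line and wild-type (WT) genotype are labelled alike in both groups. No tumour given GNC alone or light alone is among these samples, so the effects of particles and light cannot be told apart. The labels give no interval between the last treatment and harvest, and they do not say whether each tumour came from its own animal, so p-values measure the spread between these samples, which may be technical in part.

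p53 is a transcription factor that is held at a low level by Mdm2, a ubiquitin ligase, and kept inactive by the related protein Mdm4. Once stabilised by DNA damage and other stresses, it switches on genes that stop the cell cycle, repair DNA or start apoptosis. Apoptosis through mitochondria is set by the Bcl-2 family. BH3-only proteins bind the survival members and release Bax and Bak, which open the outer mitochondrial membrane. Cytochrome c then joins Apaf1 to activate caspase 9. Death receptors act through Fadd and caspase 8. Where caspase 8 is blocked, Ripk1 can engage Ripk3, which phosphorylates Mlkl. Mlkl then breaks the plasma membrane (necroptosis). Inflammatory caspases cut gasdermin D, whose fragment forms pores (pyroptosis). Much of this control acts on the proteins, through cleavage, phosphorylation and turnover, and RNA counts do not measure it.

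Libraries held between 4680295 and 8019294 counts. Untreated 2, the shallowest, stood apart, with a mean distance of 1.22 to the other 5 on the log2 scale of CPM, which are counts scaled to library size. Mean distances of the other libraries were 0.611 to 0.729. It was the highest or the lowest of the 6 libraries in 38 of the 44 tested members, highest in 22 and lowest in 16. Over all tested genes it was highest in 37.3% and lowest in 39.6%. Fold changes without it are therefore given beside many members, and for all 44 in the plot of fold changes. The sum of 8 mesenchymal markers, which fit the fibrosarcoma label, was 23940 to 30230 CPM, mostly *Col3a1* (12570 to 22445 CPM) and *Vim* (2931 to 3910 CPM). Others were lower, such as *Fap* at 7.21 to 28.3 CPM, and *Col1a1* was 59.4 CPM in untreated 2 against 1975 to 4255 CPM elsewhere. Over 5 T cell markers the sum was 0.715 to 6.35 CPM, mainly *Cd4*, and *Cd3e* had no count. Over 4 B cell markers it was 0.613 to 1.25 CPM, and *Ms4a1* had no count.

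The 250 bases before the start sites of *Cdkn1a*, *Aen*, *Bax*, *Sesn1* and *Bmf* are shown because these were the members with both an unadjusted p under 0.05 in the comparison below and a p53 half-site in that window. The half-site is the 10-base consensus to which each p53 dimer binds, which reads the same way on both strands, and its matches are in capitals. Sequences are RefSeq's on GRCm38.p6, which is the mm10 build, and run 5′ to 3′ up to the base before the start site. *Sesn1* and *Aen* are shown for the downstream of their 2 listed start sites, *Cdkn1a* for the upstream of 2, and *Bmf* for the one of 3 with the lowest coordinate.
Cdkn1a (chr17:29090729-29090978, + strand): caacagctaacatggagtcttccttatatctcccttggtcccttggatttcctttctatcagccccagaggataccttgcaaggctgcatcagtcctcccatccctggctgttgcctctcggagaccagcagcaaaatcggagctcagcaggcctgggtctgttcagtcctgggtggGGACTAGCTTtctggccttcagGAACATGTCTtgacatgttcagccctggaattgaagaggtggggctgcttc
Aen (chr7:78895808-78896057, + strand): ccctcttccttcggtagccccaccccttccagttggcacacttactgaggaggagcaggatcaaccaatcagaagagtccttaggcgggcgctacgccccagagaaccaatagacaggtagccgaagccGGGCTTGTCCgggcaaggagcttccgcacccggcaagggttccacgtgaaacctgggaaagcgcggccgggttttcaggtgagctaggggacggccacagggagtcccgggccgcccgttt
Bax (chr7:45466899-45467148, - strand): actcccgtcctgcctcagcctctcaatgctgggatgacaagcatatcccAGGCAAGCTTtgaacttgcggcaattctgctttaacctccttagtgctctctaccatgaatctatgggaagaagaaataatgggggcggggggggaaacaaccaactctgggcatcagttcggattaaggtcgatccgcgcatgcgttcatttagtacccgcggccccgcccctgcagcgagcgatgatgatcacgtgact
Sesn1 (chr10:41887189-41887438, + strand): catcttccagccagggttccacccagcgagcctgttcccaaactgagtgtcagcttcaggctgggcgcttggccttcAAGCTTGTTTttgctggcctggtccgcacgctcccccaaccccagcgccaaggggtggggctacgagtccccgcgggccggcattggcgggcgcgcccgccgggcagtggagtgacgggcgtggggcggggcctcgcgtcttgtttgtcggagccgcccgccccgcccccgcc
Bmf (chr2:118544588-118544837, - strand): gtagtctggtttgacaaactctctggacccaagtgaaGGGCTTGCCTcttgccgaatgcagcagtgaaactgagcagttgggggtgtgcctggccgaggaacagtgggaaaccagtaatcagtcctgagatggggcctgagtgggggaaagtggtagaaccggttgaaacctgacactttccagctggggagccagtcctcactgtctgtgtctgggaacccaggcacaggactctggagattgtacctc
The *Cdkn1a* window holds 2 half-sites, at positions -73 and -51 from the start, less than 13 bases apart, the largest gap allowed for a full site. Such a pair is in 0.0639% of all 32851 windows and in no other member's. The others hold 1 each, at -121 in *Aen*, -201 in *Bax*, -173 in *Sesn1* and -213 in *Bmf*. *Trp53*, *Mdm2* and *Ccng1* had 1 half-site in a window as well, at -75, -186 and -185. Of the 39 members with a listed start site, 8 had a half-site in at least 1 window (20.5%), against 8.2% of all 27025 genes with a window. By window the shares were 14% of 57 and 7.13% of 32851. The 8 were 2 of p53 and its regulators, 4 p53 targets and 2 of the Bcl-2 family. Known p53 targets were put in the list as such, so a higher share is partly built in. No window of the caspase, lytic death or Rb and Ink4 genes held a half-site. A match is a stretch of letters and not a measured binding site. Near matches are not marked, such as tgacatgttc directly after the -51 match in *Cdkn1a*, which misses the consensus at its first base. The 7 members without a listed start site were *Zmat3*, *Trp53inp1*, *Tnfrsf10b*, *Pmaip1*, *Bik*, *Gsdmd* and *Rb1*.

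In treated against untreated tumours no member passed edgeR's quasi-likelihood test, as no gene of the whole table did (0% in either direction), and the smallest adjusted p among members was 0.592. With an unadjusted p under 0.05, *Cdkn1a*, *Aen* and *Bax* had higher values in treated tumours. These 3 are 6.82% of the 44, against 3.32% of all tested genes. *Trp53inp1*, *Sesn1*, *Bmf*, *Birc2* and *Gsdmd* had lower values, and these 5 are 11.4% against 4.85%. The 3 treated values lay above all 3 untreated ones in 5 members (11.4%, background 10.6%) and below them in 9 (20.5%, background 10.2%). The 5 were *Trp53*, *Cdkn1a*, *Aen*, *Bak1* and *Mlkl*, and the 9 were *Mdm4*, *Sesn1*, *Trp53inp1*, *Bmf*, *Casp9*, *Xiap*, *Birc2*, *Gsdmd* and *Rb1*. The log2 fold change was above 0 in 20 members (45.5%, background 49.9%) and below 0 in 24 (54.5%, background 50.1%). Its median was -0.13, against -0.00103 over all 12517 tested genes. The list was chosen with earlier results of these data known. These shares and those below are therefore a description, and a share above the background is no test of the members.

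Leaving out untreated 2 gave 3 members that were higher (6.82%, background 9.55%) and 10 that were lower (22.7%, background 8.85%) at the same unadjusted level. The 10 were *Mdm4*, *Sesn1*, *Trp53inp1*, *Bcl2*, *Bcl2l11*, *Bmf*, *Xiap*, *Birc2*, *Gsdmd* and *Rb1*. Without overlap, 12 were lower (27.3%, background 20%) and 8 were higher (18.2%, background 19.2%). The 9 named above as lower are among the 12 by construction, since leaving out a library cannot make separate groups overlap. The sign differed from that with 6 libraries for 10 members. Over all genes of the fit without untreated 2, 50.1% were above 0 and 49.9% below. edgeR's smallest adjusted p for a member was then 0.227, shared by *Trp53inp1*, *Bcl2* and *Gsdmd*.

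The counts also moved with other single libraries. Without treated 3, 0 were higher (background 0.702%) and 1 lower (background 1.77%) at that level, and 5 were higher (background 11.8%) and 9 lower (background 12%) without overlap. Without treated 1, 2 were higher (background 2.15%) and 2 lower (background 2.27%) at that level, and 9 were higher (background 15.2%) and 10 lower (background 14%) without overlap. Without treated 2, 3 were higher (background 2.98%) and 4 lower (background 3.72%) at that level, and 8 were higher (background 18%) and 12 lower (background 15.2%) without overlap. Without untreated 1, 1 was higher (background 1.51%) and 5 lower (background 4.84%) at that level, and 6 were higher (background 13.4%) and 11 lower (background 13.5%) without overlap. Without untreated 3, 4 were higher (background 5.12%) and 6 lower (background 8.08%) at that level, and 9 were higher (background 18%) and 12 lower (background 17.4%) without overlap. In each of these fits a larger share of all genes was without overlap than with 6 libraries. DESeq2 called 0 members, while it called 0.0824% of its tested genes higher and 0.165% lower. Without untreated 2 it also called 0 members, against 0.58% of genes higher and 0.701% lower. Its smallest adjusted p for a member was 0.16 with 6 libraries and 0.053 without untreated 2, in both cases for *Trp53inp1*.

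**Figure D1:**
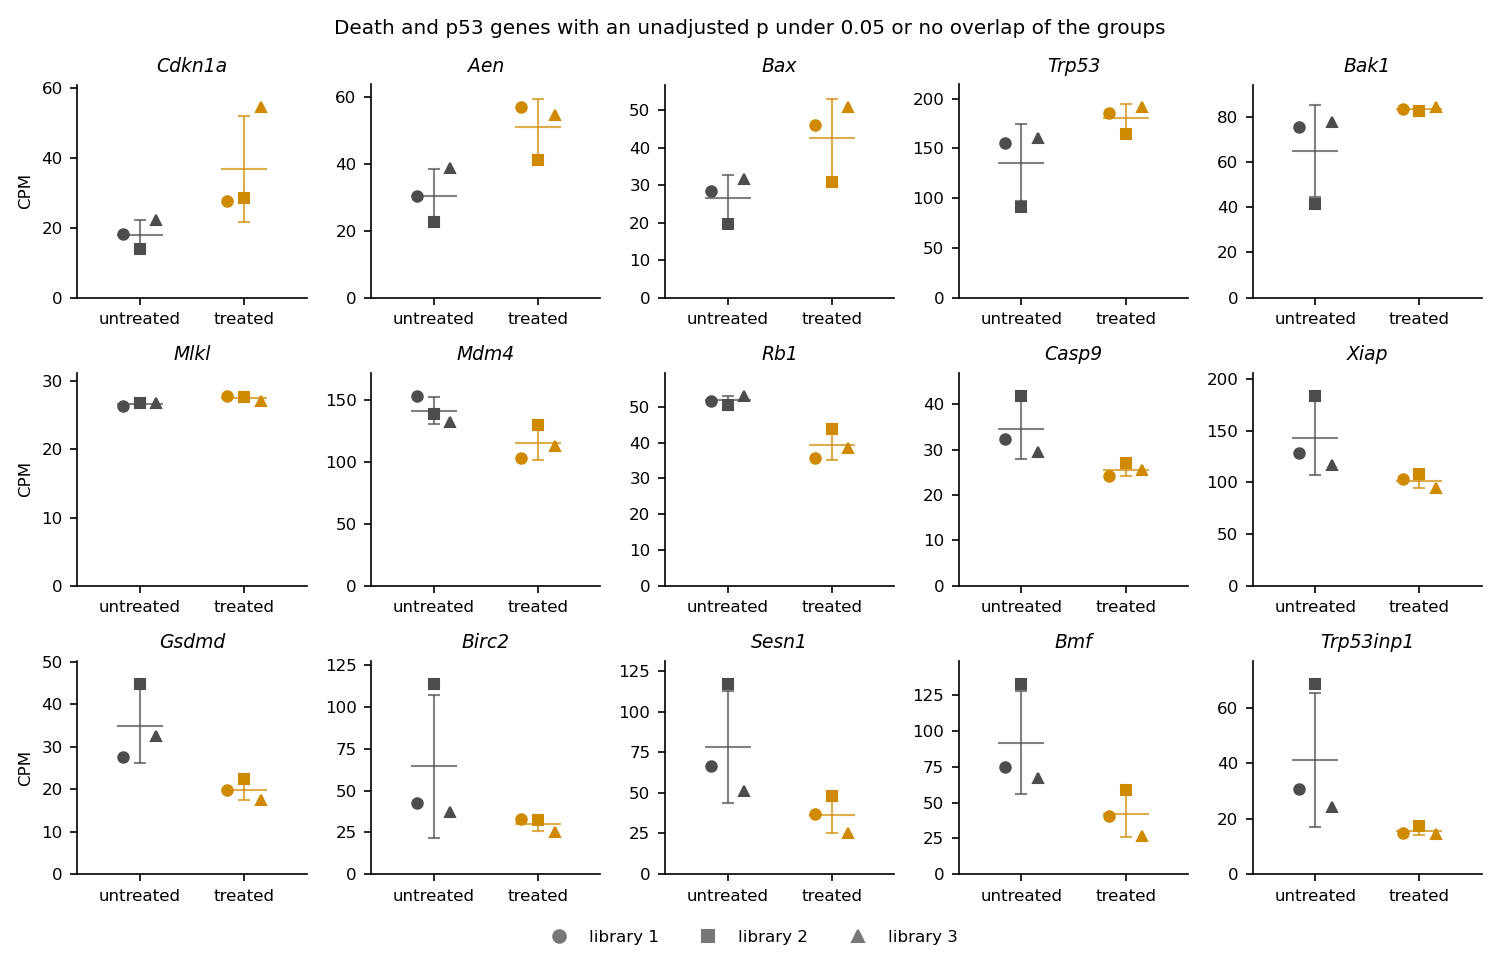
CPM in each library for the 15 tested members with an unadjusted p under 0.05 or no overlap of the groups, ordered from the highest to the lowest log2 fold change. Circles, squares and triangles are libraries 1, 2 and 3, the long bar is the group mean and the whiskers are 1 SD (n = 3). Untreated 2, the grey square, is the lowest point in *Cdkn1a*, *Aen*, *Bax*, *Trp53* and *Bak1* and the highest in the last row.

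Transcripts of p53 itself were abundant. In this and later paragraphs, values are CPM in the order of library numbers 1, 2 and 3. *Trp53* (chromosome 11, 69580359 to 69591873, mm10) read 155, 90.8 and 160.3 CPM in untreated and 186, 164 and 191 CPM in treated tumours. The groups did not overlap, untreated 2 was lowest, and the means were 135 ± 38.7 and 181 ± 14.4 CPM (SD, n = 3). For *Trp53* the log2 fold change was 0.41 ± 0.26 (SE, adjusted p 0.625), or 0.19 without untreated 2. *Mdm2*, the ubiquitin ligase that is also a p53 target, read 50.4, 32.4 and 52.8 CPM in untreated and 58.6, 49.1 and 64.0 CPM in treated libraries, which overlapped. Its log2 fold change was 0.34 ± 0.25 (adjusted p 0.652), or 0.14 without untreated 2. *Mdm4* went the other way, with 154, 139 and 132 CPM untreated and 103, 129.9 and 113 CPM treated, again without overlap. Here untreated 2 lay between the other untreated values, and the log2 fold change of -0.30 ± 0.19 (adjusted p 0.632) was -0.31 without it.

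Among the 12 p53 targets, 7 had a log2 fold change above 0 and 5 below, with a median of 0.14, and 2 in each direction had an unadjusted p under 0.05. Over all tested genes, 3.32% were higher and 4.85% lower at that level. *Cdkn1a* (chromosome 17, 29090976 to 29100727), whose product p21 inhibits cyclin-dependent kinases, read 18.1, 13.8 and 22.2 CPM in untreated and 27.7, 28.4 and 54.5 CPM in treated tumours. Every treated library lay above every untreated one, and treated 3 stood well above the other treated libraries. This gave a log2 fold change of 1.02 ± 0.34 (95% interval 0.23 to 1.82, adjusted p 0.592), and 0.63 without treated 3. Treated 3 also held the most RNA of skeletal muscle markers, 327.9 CPM over 5 genes against 3.27 to 73.4 CPM in the others, and the part of muscle in the *Cdkn1a* value was not tested. *Aen* (chromosome 7, 78895854 to 78911209), a nuclease that helps degrade DNA in apoptosis, read 30.3, 22.5 and 38.6 CPM untreated and 56.9, 41.1 and 54.6 CPM treated, also without overlap. Its log2 fold change was 0.73 ± 0.26 (interval 0.12 to 1.35, adjusted p 0.592).

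*Trp53inp1* and *Sesn1* stood at the opposite end of the same list. *Trp53inp1* (chromosome 4, 11156431 to 11174379), whose product promotes p53 phosphorylation and autophagy, read 30.9, 68.7 and 24.0 CPM in untreated and 14.7, 17.4 and 14.5 CPM in treated tumours. The treated libraries were close together and below all untreated ones, and the log2 fold change was -1.40 ± 0.41 (interval -2.36 to -0.44, adjusted p 0.592), or -0.82 without untreated 2. *Sesn1* (chromosome 10, 41809935 to 41908424), an inhibitor of mTORC1 signalling, read 66.7, 117 and 51.3 CPM untreated and 36.8, 47.9 and 25.0 CPM treated, again apart. Its log2 fold change was -1.10 ± 0.38 (interval -1.99 to -0.20, adjusted p 0.592), or -0.69 without untreated 2. Thus *Cdkn1a* and *Aen* were higher and *Trp53inp1* and *Sesn1* lower in treated tumours with every library counted, with untreated 2 left out, and in each other alternative run, none of them past the threshold.

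The other 8 p53 targets overlapped between the groups. *Ccng1*, cyclin G1, showed how far a single library could move a mean. It read 70.9, 220.5 and 67.3 CPM untreated and 69.0, 70.1 and 64.8 CPM treated, so that 5 libraries lay between 64.8 and 70.9 CPM and untreated 2 stood alone. The log2 fold change was -0.81 with it and -0.03 without it. *Zmat3*, an RNA-binding tumour suppressor, was low in untreated 2 instead, at 32.4 CPM against 74.6 to 103.0 CPM elsewhere. *Phlda3*, which restrains Akt at the membrane, varied little, from 41.6 to 51.3 CPM over the 6 libraries, and its interval ran from -0.50 to 0.35. *Plk2*, a kinase of centriole duplication, spanned 63.1 to 82.9 CPM. *Btg2*, an antiproliferative cofactor, read 9.38, 8.26 and 10.6 CPM untreated and 6.08, 15.0 and 20.4 CPM treated, with treated 1 below and treated 2 and 3 above all untreated libraries. The 3 members of the TNF receptor family in the list were modest or scarce. *Eda2r* read 21.9 to 23.2 CPM in treated tumours and 16.2, 42.0 and 22.7 CPM in untreated ones. *Tnfrsf10b*, the mouse TRAIL receptor, lay at 2.23 to 5.59 CPM. *Fas* read 1.21, 3.35 and 1.23 CPM untreated and 1.79, 2.04 and 2.24 CPM treated, which is 8 to 18 counts a library, and its interval of -1.07 to 1.34 is wide on both sides of 0. *Fas* had a log2 fold change of 0.13 with untreated 2 and 0.72 without it, where the treated libraries lay above the rest.

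**Figure D2:**
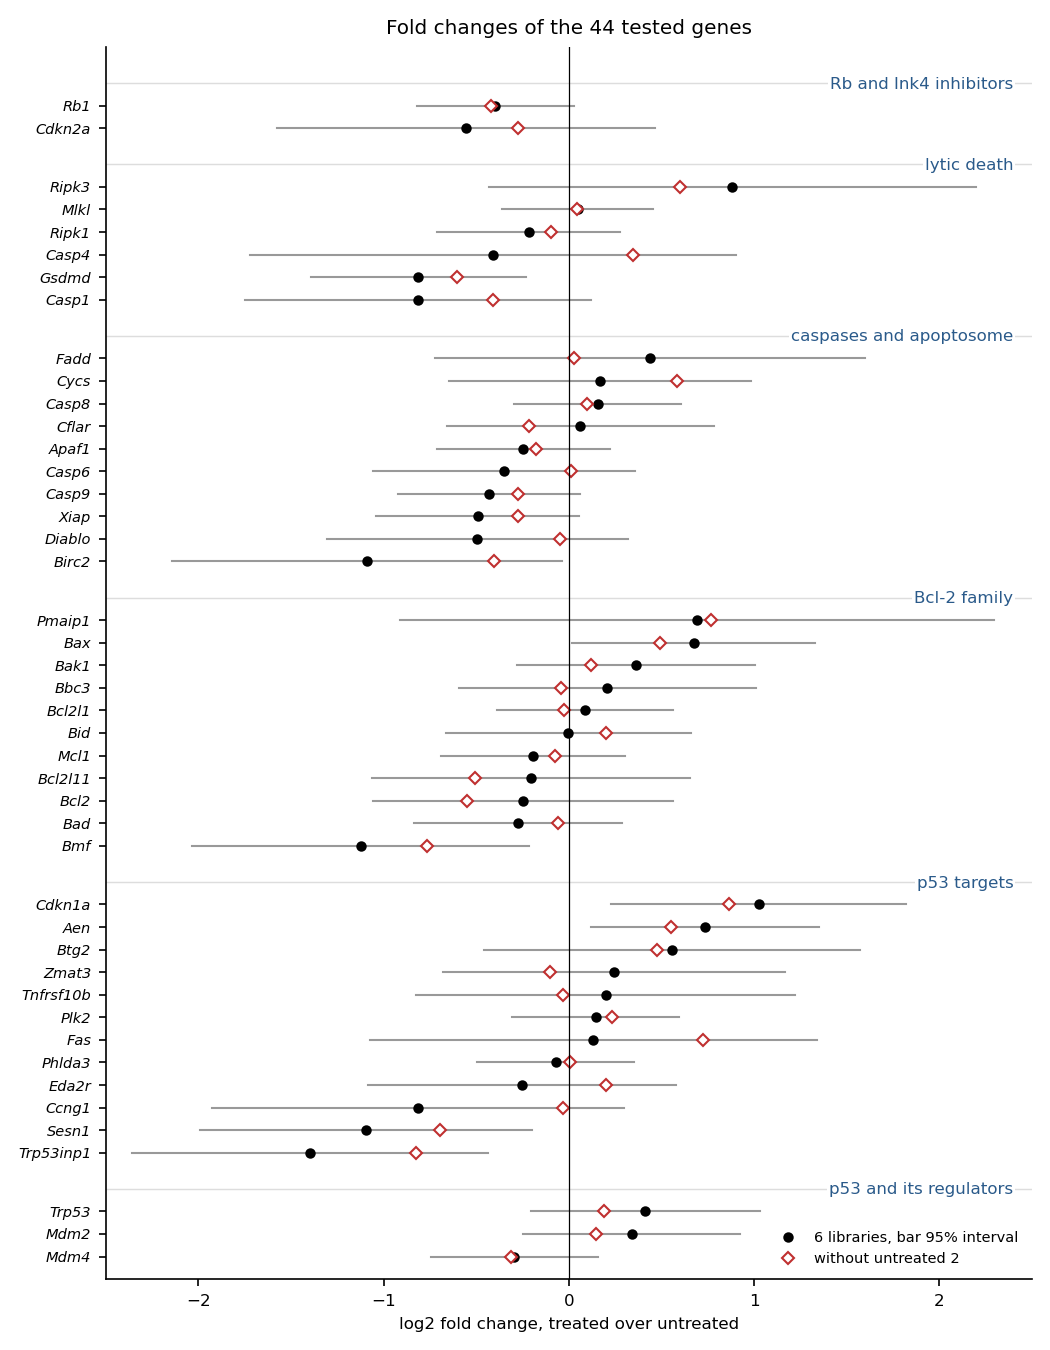
Log2 fold change of treated over untreated tumours for the 44 tested members, by functional group. Filled circles with 95% intervals are from 6 libraries and open diamonds from the fit without untreated 2. Intervals of 8 members exclude 0 before adjustment, and 10 diamonds lie on the other side of 0 from their circle.

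In the Bcl-2 family 5 of 11 tested genes had a log2 fold change above 0 and 6 below, with a median of -0.00218. The executioner *Bax* (chromosome 7, 45461697 to 45466898), which permeabilises mitochondria, read 28.4, 19.6 and 31.6 CPM untreated and 46.1, 30.7 and 50.7 CPM treated. Treated 2 lay inside the untreated range while treated 1 and 3 lay above it. *Bax* had a log2 fold change of 0.67 ± 0.28 (interval 0.02 to 1.33, adjusted p 0.592), and 0.49 without untreated 2, where the unadjusted p was 0.0506. Its partner *Bak1* read 75.5, 41.3 and 77.9 CPM untreated and 83.7, 82.7 and 84.3 CPM treated, with no overlap. The treated values were close together just above untreated 1 and 3, and the log2 fold change of 0.36 ± 0.27 (adjusted p 0.659) was 0.12 without untreated 2. *Bak1* shares exon positions on the opposite strand with *Ggnbp1*, and whether counting used strand is not given in the sources used here.

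Of the survival genes, *Mcl1* was by far the most abundant. Per kilobase of the longest annotated transcript, mean levels in untreated and treated tumours were 102 ± 15.3 and 89.6 ± 10.7 CPM per kb for *Mcl1*, 15.7 ± 2.84 and 16.7 ± 0.414 for *Bcl2l1* (Bcl-xL) and 4.84 ± 1.97 and 4.09 ± 0.647 for *Bcl2*. The 3 genes did not overlap in level in any library. On the same per-length scale *Bak1* had 27.2 ± 8.58 and 35.0 ± 0.336 and *Bax* 24.2 ± 5.65 and 38.7 ± 9.51 CPM per kb. Between groups, *Mcl1* read 309, 409 and 332 CPM untreated and 265, 319 and 334 CPM treated, and *Bcl2l1* 38.6, 33.9 and 48.2 CPM untreated and 41.7, 43.7 and 43.3 CPM treated. Both overlapped, with intervals of the log2 fold change from -0.69 to 0.30 and from -0.39 to 0.56. Without untreated 2 the values were -0.07 and -0.03, against -0.19 and 0.09 with it. *Bcl2* read 43.9, 18.5 and 42.1 CPM untreated and 27.7, 34.7 and 25.9 CPM treated. Untreated 2 was the lowest of all, and without it both other untreated libraries exceeded the treated ones, with a log2 fold change of -0.55 against -0.25 with it.

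The ratio of *Bax* to *Bcl2* counts within a library needs no scaling between libraries. It is not scaled by length, and the longest transcripts have 1100 bases for *Bax* and 7191 for *Bcl2*. A ratio of 1 therefore does not mean equal levels per length. GC content differs too, at 63.5% and 46.3%, so a bias by GC content need not cancel. The ratio was 0.649, 1.06 and 0.753 in untreated and 1.66, 0.886 and 1.96 in treated tumours. Treated 1 and 3 lay above the untreated range and treated 2 lay within it. On the log2 scale the means were -0.32 ± 0.36 and 0.51 ± 0.60 (SD, n = 3), a difference of 0.83. The exact permutation test, 2-sided, gave p = 0.2, where 3 against 3 libraries cannot give less than 0.1.

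**Figure D3:**
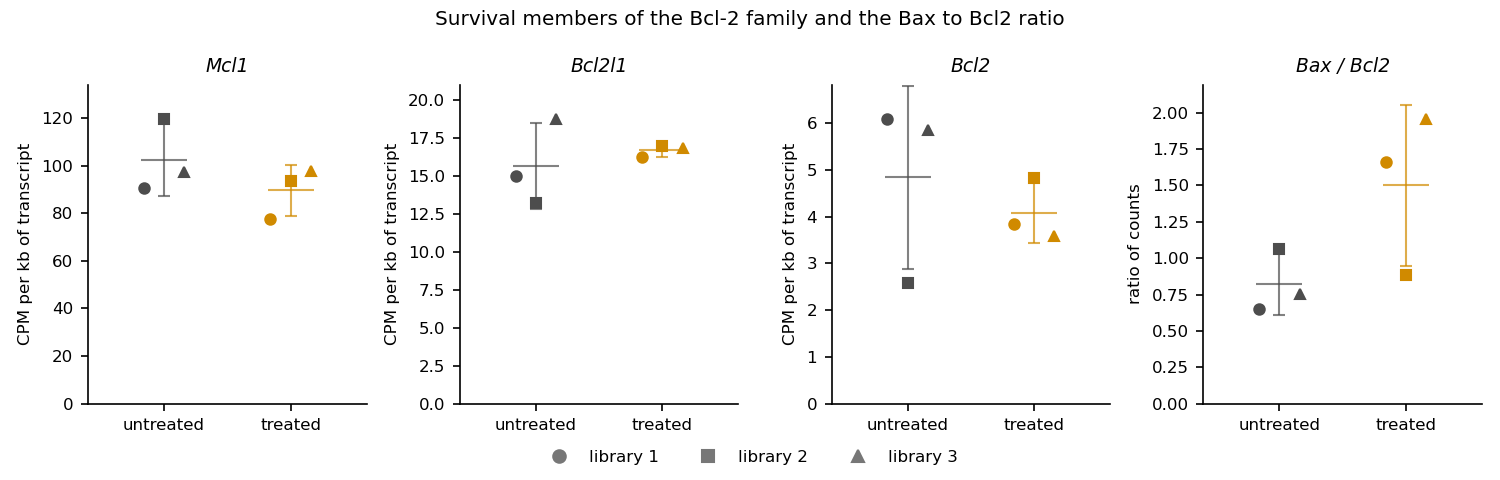
CPM per kb of longest transcript for *Mcl1*, *Bcl2l1* and *Bcl2*, and the ratio of *Bax* to *Bcl2* counts, in each library. Symbols, bars and whiskers are library number, mean and SD (n = 3), and each axis starts at 0. The ratio, which is not scaled by length, is 1.66 and 1.96 in treated 1 and 3 and lies at 0.886 in treated 2.

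BH3-only genes are the sensors that trigger the pathway. *Bmf* (chromosome 2, 118528757 to 118549687), which is known for its response to loss of attachment, read 75.2, 133 and 67.1 CPM untreated and 40.4, 59.2 and 26.6 CPM treated, apart in every library. Its log2 fold change was -1.12 ± 0.39 (interval -2.03 to -0.21, adjusted p 0.592), and -0.76 without untreated 2. *Bcl2l11* (Bim) read 47.0, 19.6 and 43.1 CPM untreated and 32.0, 39.7 and 23.9 CPM treated. Untreated 2 was again lowest, and the log2 fold change was -0.20 with it and -0.51 without it. *Bbc3* (Puma) read 10.3, 7.14 and 16.9 CPM untreated and 14.5, 12.5 and 13.1 CPM treated, so the treated libraries sat within the untreated spread. *Pmaip1* (Noxa) was near the limit of counting, with 4, 6 and 13 counts in untreated and 3, 23 and 16 in treated libraries. *Bid*, which caspase 8 cleaves, had means of 30.3 ± 8.52 and 30.2 ± 6.63 CPM in untreated and treated tumours, and *Bad* 31.9 ± 8.09 and 26.4 ± 2.78 CPM. *Bik* was too low to test, at 7, 12 and 10 counts untreated and 3, 3 and 6 treated.

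Of the members, *Casp6*, *Casp8* and *Casp9* are caspases of apoptosis, and none had an unadjusted p under 0.05. Initiator caspase 8, *Casp8*, read 38.9, 35.5 and 41.2 CPM untreated and 36.6, 45.6 and 46.5 CPM treated, with overlap and an interval of -0.30 to 0.61. *Casp9*, the initiator of the mitochondrial route, read 32.4, 42.0 and 29.4 CPM untreated and 24.1, 27.1 and 25.6 CPM treated, all treated values below the untreated ones. Its log2 fold change was -0.43 ± 0.21 (adjusted p 0.592), and -0.28 without untreated 2. *Casp6*, an executioner, spanned 19.7 to 22.5 CPM in 5 libraries and reached 38.6 CPM in untreated 2. *Apaf1*, the scaffold of the apoptosome, had means of 90.9 ± 8.66 and 76.6 ± 10.1 CPM in untreated and treated tumours. *Cycs*, cytochrome c, read 69.6, 146 and 73.6 CPM untreated and 132, 83.5 and 109 CPM treated. Its treated libraries exceeded untreated 1 and 3, and untreated 2 exceeded them all, so that the log2 fold change was 0.17 with it and 0.58 without it.

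The inhibitors of apoptosis *Birc2* and *Xiap* had lower CPM in each treated than in each untreated library, without passing the test. *Birc2* (chromosome 9, 7818227 to 7837064), which codes for cIAP1, a ubiquitin ligase of TNF receptor signalling, read 42.7, 114 and 36.9 CPM untreated and 32.7, 32.6 and 25.4 CPM treated. *Xiap*, a direct caspase inhibitor, read 129, 184 and 117 CPM untreated and 103, 108 and 94.4 CPM treated. Neither overlapped, and in both untreated 2 was the highest. The log2 fold change was -1.09 ± 0.45 for *Birc2* (interval -2.14 to -0.04, adjusted p 0.592) and -0.49 ± 0.23 for *Xiap* (interval -1.04 to 0.06, adjusted p 0.592). They were -0.40 and -0.28 without untreated 2. With a GC and length correction *Xiap* was at -0.10. *Diablo*, whose product counters these inhibitors, had means of 44.3 ± 20.9 and 31.4 ± 4.92 CPM and no separation. *Cflar* (c-FLIP), a decoy for caspase 8, read 143, 64.5 and 122 CPM untreated and 117, 121 and 106 CPM treated. *Fadd*, the adaptor of death receptors, read 13.5, 3.12 and 13.003 CPM untreated and 14.7, 11.7 and 14.3 CPM treated. In both it was untreated 2 that stood low, while the other 5 libraries spanned 105.9 to 142.6 CPM for *Cflar* and 11.7 to 14.7 CPM for *Fadd*.

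Of the 6 lytic death genes, *Gsdmd* (chromosome 15, 75862327 to 75867408), the pore-forming gasdermin D, had the smallest unadjusted p. It read 27.5, 44.9 and 32.6 CPM untreated and 19.8, 22.3 and 17.5 CPM treated, the groups well apart. Its log2 fold change was -0.81 ± 0.25 (interval -1.39 to -0.23, adjusted p 0.592) and -0.60 without untreated 2, and over all alternatives it lay between -0.97 and -0.60. The caspases that cleave it were lower in level. *Casp1* read 15.0, 25.4 and 10.4 CPM untreated and 7.87, 12.9 and 7.83 CPM treated, with treated 2 inside the untreated range, and its log2 fold change of -0.82 ± 0.40 (adjusted p 0.592) was -0.41 without untreated 2. *Casp4* (caspase 11) read 3.18, 13.4 and 5.15 CPM untreated and 3.93, 7.07 and 4.97 CPM treated, with 21 to 60 counts a library, and its log2 fold change was -0.41 with and 0.35 without untreated 2.

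In the necroptosis pathway, *Mlkl*, the membrane-breaking effector, had the smallest spread over the 6 libraries of all members, relative to its mean. It read 26.3, 26.8 and 26.7 CPM untreated and 27.9, 27.6 and 27.1 CPM treated. The groups did not overlap, yet with 120 to 218 counts a library the log2 fold change of 0.05 ± 0.17 (interval -0.36 to 0.46) was smaller than its SE. It lay between 0.01 and 0.09 in every alternative run. The means were 26.6 ± 0.256 and 27.5 ± 0.398 CPM. *Ripk3*, the kinase that activates Mlkl, was scarcer and more variable, with 3.33, 2.23 and 6.87 CPM untreated and 3.58, 8.16 and 11.6 CPM treated. Treated 1 lay inside the untreated range, and the log2 fold change of 0.88 ± 0.56 (adjusted p 0.624) was 0.49 without treated 3. *Ripk1*, which acts in both survival and death, had means of 66.3 ± 9.83 and 57.0 ± 7.60 CPM, overlapping.

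Markers of leukocytes, which also express lytic death genes, are given beside them, and none passed edgeR's test. The summed level of 6 macrophage markers was 686.7, 1124 and 746.3 CPM in untreated and 308.9, 578.5 and 465.9 CPM in treated tumours, apart as for *Gsdmd*. Of the 6, 5 were lower in treated tumours, *Csf1r*, *Mrc1*, *C1qa* and *Fcgr1* without overlap, and *Cd68* had a log2 fold change of 0.05. DESeq2 without untreated 2, an alternative chosen after seeing the data, called *Csf1r* and *C1qa* lower (adjusted p 0.0116 and 0.0258). It called 0.701% of all its genes lower, among them the mesenchymal marker *Pdgfra* (adjusted p 0.0356). Of 4 general leukocyte markers, *Ptprc* was lower without overlap (log2 fold change -1.01). The other 3 overlapped, *Coro1a* at -0.78, *Lcp1* at -0.02 and *Laptm5* at -0.10. Without untreated 2 the 4 values were -0.49, -0.32, -0.25 and -0.53. The sum of 5 neutrophil markers was 32.2, 23.9 and 102.8 CPM untreated and 123.9, 90.6 and 128.8 CPM treated. Untreated 3 was above treated 2 in that sum. In bulk tissue, fewer cells of a type and less RNA per cell cannot be told apart, and the part of macrophages or neutrophils in the values of lytic death genes was not tested.

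**Figure D4:**
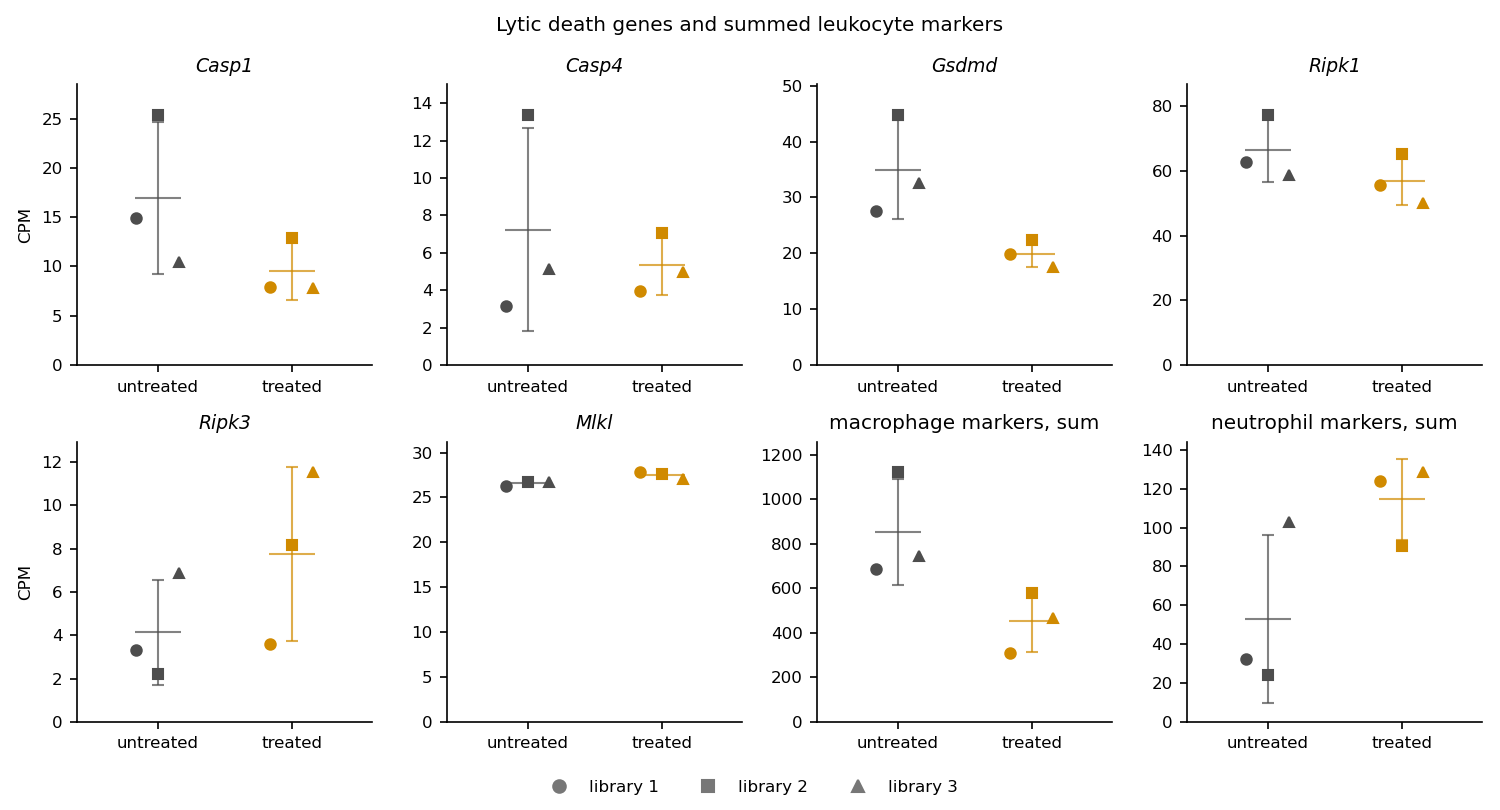
CPM of the 6 lytic death genes in each library, with the summed CPM of 6 macrophage and 5 neutrophil markers in the last panels. Symbols, bars and whiskers are library number, mean and SD (n = 3). *Gsdmd* and the macrophage sum are lower in each treated library than in each untreated one, and *Mlkl* spans 26.3 to 27.9 CPM.

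The Rb and Ink4 genes hold the G1 checkpoint. *Rb1*, the retinoblastoma protein, read 51.7, 50.4 and 53.1 CPM untreated and 35.8, 43.7 and 38.4 CPM treated. Untreated libraries were close together, and all lay above the treated ones. *Rb1* had a log2 fold change of -0.40 ± 0.18 (interval -0.82 to 0.03, adjusted p 0.592) and -0.42 without untreated 2. With a GC and length correction it was -0.19. *Rb1* shares exon positions with *Lpar6* and *Rcbtb2* on the opposite strand. *Cdkn2a*, whose p16Ink4a and p19Arf transcripts are counted under 1 symbol, had 19, 22 and 23 counts in untreated and 17, 11 and 21 in treated libraries. That is 2.87, 4.91 and 2.82 CPM and 3.04, 1.496 and 2.61 CPM, low in both groups, with an interval of -1.58 to 0.47. *Cdkn2a* was at a log2 fold change of -0.55 with untreated 2 and -0.27 without it. *Cdkn2b* had 5, 0 and 5 counts untreated and 1, 3 and 7 treated, and the 0 in untreated 2 allows up to 0.641 CPM at 3 counts, by counting error alone.

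Further genes of these pathways were taken from lists, all without a call by edgeR or DESeq2. Of 25 other p53 targets, 19 were tested, 9 with a log2 fold change above 0 and 10 below (median -0.06). *Ddb2*, a sensor of ultraviolet damage, read 12.6, 16.1 and 9.45 CPM untreated and 4.47, 7.35 and 6.09 CPM treated, with a log2 fold change of -1.07 ± 0.32 (adjusted p 0.592). *Gtse1*, a mitotic protein that also restrains p53, read 18.6, 8.93 and 22.4 CPM untreated and 28.4, 27.9 and 37.8 CPM treated (0.90 ± 0.35, adjusted p 0.592). In these the groups did not overlap. *Dcxr* (-0.90 ± 0.48) and *Triap1* (0.37 ± 0.26) overlapped. *Perp*, a p53 and p63 target of epidermal desmosomes and chosen after its values were seen, read 63.1, 83.0 and 0 CPM untreated and 0.536, 0 and 1.37 CPM treated. The sum of 6 keratinocyte markers was high in the same libraries, with 1184, 593.4 and 5.89 CPM untreated and 20.7, 4.35 and 66.3 CPM treated, and its part in *Perp* was not tested.

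Among 13 other Bcl-2 family genes, 7 were tested, 2 above 0 and 5 below (median -0.36). *Bnip3*, a mitophagy receptor induced by hypoxia, read 196, 477 and 164 CPM untreated and 151, 144 and 125 CPM treated (-0.99 ± 0.42, adjusted p 0.592), and its relative *Bnip3l* 240.2, 496 and 203 CPM and 187, 179 and 162 CPM (-0.83 ± 0.36, adjusted p 0.592). Both were apart, and at -0.37 and -0.34 without untreated 2. *Bcl2l13* (0.13 ± 0.17) and *Bok* (0.01 ± 0.45) lay above 0, and *Bok* at 0.66 without untreated 2. Of 21 other apoptosis genes, 18 were tested, 7 above 0 and 11 below (median -0.04). *Birc5*, survivin, read 42.7, 45.5 and 49.4 CPM untreated and 66.3, 52.4 and 84.0 CPM treated (0.56 ± 0.23, adjusted p 0.592). *Parp1*, a DNA break sensor that caspases cleave, read 119, 58.7 and 136 CPM untreated and 185, 149.6 and 194 CPM treated (0.75 ± 0.33, adjusted p 0.592). *Casp12*, a caspase of the endoplasmic reticulum, read 72.6, 261 and 66.1 CPM untreated and 50.8, 60.8 and 29.7 CPM treated (-1.50 ± 0.59, adjusted p 0.592). *Birc5* and *Parp1* were higher and *Casp12* lower in each treated library than in each untreated one, and the value of *Casp12* was -0.57 without untreated 2. *Casp2* was at -0.38 ± 0.22 and overlapped.

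Of 19 other lytic death genes, 16 were tested, 4 above 0 and 12 below (median -0.20, and 0.20 without untreated 2). *Zbp1*, a sensor of Z-form nucleic acids that recruits Ripk3, read 12.6, 20.8 and 7.24 CPM untreated and 5.72, 6.67 and 5.10 CPM treated (-1.20 ± 0.41, adjusted p 0.592), without overlap. *Gbp2*, an interferon-induced GTPase, read 40.5, 91.3 and 33.9 CPM untreated and 18.6, 35.5 and 16.3 CPM treated (-1.23 ± 0.47, adjusted p 0.592). *Il1b*, the cytokine that caspase 1 matures, read 4.39, 13.2 and 20.5 CPM untreated and 39.7, 18.4 and 46.3 CPM treated (1.45 ± 0.57, adjusted p 0.592). Without untreated 2 these values were -0.76, -0.66 and 1.44. Treated 2 was below untreated 3 for *Il1b*, and treated 1 and 3 were the highest. *Nlrp3*, the sensor of an inflammasome, read 6.35, 2.23 and 15.0 CPM untreated and 13.1, 9.93 and 16.4 CPM treated, and these overlapped (0.71 ± 0.60). *Il18*, the other cytokine that caspase 1 matures, was named after its values were seen, and it read 3.63, 3.35 and 2.82 CPM untreated and 1.61, 1.77 and 1.86 CPM treated (-0.89 ± 0.34, adjusted p 0.592), lower without overlap.

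The departure of untreated 2 went with base composition across the transcriptome. In the bin of all tested genes with the lowest GC content its log2 CPM exceeded the average of the remaining libraries by 0.76, and in the highest bin the difference was -0.76. Across the 44 members, whose transcripts ran from 36.8% to 65.2% GC, its log2 departure had a Spearman rho of -0.38 with GC content, a description over genes that share a library. *Trp53inp1* (38.8% GC), *Ccng1* (40.8%) and *Birc2* (43.1%) had differences of 1.80, 1.68 and 1.75. *Bax* (63.5%) and *Bbc3* (65.2%) were at -0.88 and -0.85. *Bmf* (53.7%), *Sesn1* (49.8%) and *Gsdmd* (54.4%) were at 1.40, 1.43 and 0.93, where genes of like GC content were below 0. The edgeR fit was also run with a GC and length correction. The log2 fold change was then 0.95 for *Cdkn1a*, -0.96 for *Trp53inp1*, -1.24 for *Sesn1*, -1.67 for *Bmf* and -0.86 for *Gsdmd*, with 0 called. Beside *Xiap* and *Rb1*, it moved *Casp1* from -0.82 to -0.49, nearer 0, and *Casp9* from -0.43 to -0.73, farther from it.

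**Figure D5:**
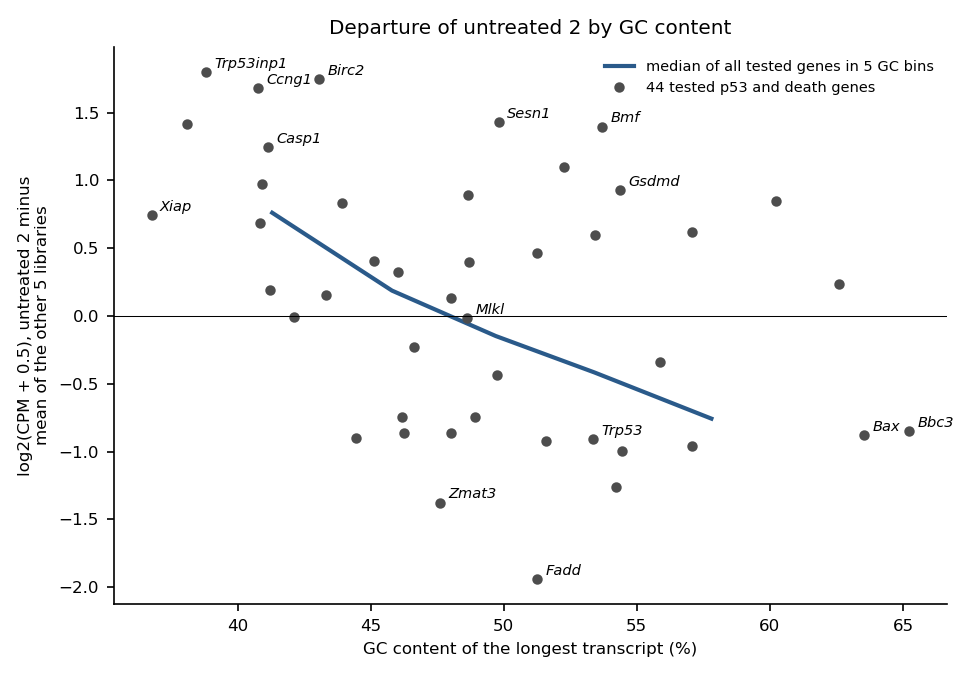
Each point is a tested member, placed by the GC content of its longest transcript (percent) and by how far untreated 2 lay from the mean of the other 5 libraries, in log2(CPM + 0.5). The line joins the medians of all tested genes in 5 equal GC bins, from 0.76 to -0.76. Members scatter on both sides of it, with *Fadd* and *Zmat3* lowest and *Trp53inp1* highest.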

How the data were processed

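RNA of 6 tumours, extracted with Trizol, was made into libraries with a kit that keeps strand, per the labels' protocols. The authors deposited 1 table of raw counts per gene symbol for each library. TopHat (version not given) and the mm10 build are named in the submitters' processing notes. How reads were assigned to genes, with or without strand, and by which annotation is not given in the sources used here.

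The members and lists were chosen with earlier results of these data known. Genes passing edgeR's filterByExpr (smallest count 10) were scaled by TMM and compared between all 3 treated and 3 untreated libraries by the quasi-likelihood test (2-sided, R 4.3.3, edgeR 4.0.16), with Benjamini-Hochberg adjustment over 12517 genes and a threshold of 0.05. SEs and 95% intervals come from that fit. CPM were computed with TMM library sizes. Alternatives were DESeq2 1.42.0, limma 3.58.1 (voom, with and without quality weights), other scalings and filters, a replicate block, a GC and length offset, and leaving out each library. The procedure was tested on simulated data, where it missed all genes changed 2-fold and many of those changed 4-fold. A gene that did not pass is not shown to be unchanged.

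Per-library values are given for members at an unadjusted p under 0.05 or without overlap and for a fixed set of key genes. In the further lists the 2 genes with the smallest p in each direction are named. GC content and length are from the longest GENCODE M21 transcript on mm10 (99.3% of tested genes). Promoters are from RefSeq GRCm38.p6. *Septin4*, *Gsdme* and *Irgb10* were found as *Sept4*, *Dfna5* and *Gm12250*, and *Ly6g* and *Trac* were not matched. In 7 of 46 members exons overlap a counted gene on the opposite strand (*Bak1*, *Bid*, *Bad*, *Casp9*, *Diablo*, *Ripk1* and *Rb1*), and reads of such pairs cannot be told apart if strand was not used. Floors for 0 counts cover counting error only.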

Additional observations from a re-analysis of the deposited data

How the results depend on the processing

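Of 44 tested members, 31 kept the direction of their log2 fold change in every alternative run, which were 17, or 16 for *Pmaip1* and *Cdkn2a*, and members past the adjusted threshold numbered 0 in each. The main limits are 3 tumours a group, 1 untreated library that stood apart, and low counts for genes such as *Fas*, *Pmaip1*, *Casp4* and *Cdkn2a*. Tissue content was uneven as well. The keratinocyte marker sum was 1184 and 593.4 CPM in untreated 1 and 2, against 4.35 to 66.3 CPM in the other libraries. Its part in the members' values was not tested. Genes of the whole table past the threshold numbered 0 higher and 0 lower with edgeR, 15 and 30 with DESeq2, 1 and 1 with voom and quality weights, and 105 and 127 with DESeq2 without untreated 2, an alternative chosen after seeing the data. Leaving out 1 library at a time gave 0 higher and 0 to 4 lower with edgeR. Members at an unadjusted p under 0.05, 3 higher and 5 lower, numbered 4 and 10 with quality weights, 0 to 4 and 1 to 10 on leaving out 1 library, and 2 to 4 and 4 to 10 over the other alternatives. Members without overlap, 5 and 9, numbered 5 to 9 and 9 to 12 on leaving out 1 library, and 4 to 7 and 8 to 13 over the other alternatives. On leaving out 1 library, 0.702% to 9.55% of all genes were higher and 1.77% to 8.85% lower at that unadjusted level. Without overlap these shares were 11.8% to 19.2% and 12% to 20%. For quality weights and the other alternatives the shares of all genes are not given, so those counts have no background. The difference of the *Bax* to *Bcl2* ratio ranged from 0.60 to 1.17.

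Direction differed from the reported one with quality weights for *Phlda3* 0.0070, *Zmat3* -0.055, *Eda2r* 0.20, *Tnfrsf10b* -0.051, *Bcl2l1* -0.011, *Bbc3* -0.0093, *Bid* 0.18, *Casp6* 0.012, *Cflar* -0.19 and *Casp4* 0.28, with plain voom for *Bid* 0.020, and with a GC and length correction for *Eda2r* 0.070, *Bcl2l1* -0.059 and *Casp4* 0.13. DESeq2 without untreated 2 gave *Phlda3* 0.0097, *Zmat3* -0.097, *Eda2r* 0.20, *Tnfrsf10b* -0.034, *Bcl2l1* -0.023, *Bbc3* -0.040, *Bid* 0.21, *Casp6* 0.014, *Cflar* -0.21 and *Casp4* 0.35. On leaving out 1 library, ranges that crossed 0 were *Fas* -0.13 to 0.72, *Bcl2l11* -0.51 to 0.0065, *Cycs* -0.033 to 0.58, *Phlda3* -0.15 to 0.0071, *Zmat3* -0.10 to 0.62, *Eda2r* -0.53 to 0.20, *Tnfrsf10b* -0.073 to 0.45, *Bcl2l1* -0.026 to 0.24, *Bbc3* -0.042 to 0.61, *Bid* -0.20 to 0.20, *Casp6* -0.54 to 0.011, *Cflar* -0.21 to 0.29 and *Casp4* -0.78 to 0.35. The cause was not tested.

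Replicate numbers were shared between groups, but correlations of deviations for same-numbered libraries were -0.18, -0.11 and 0.11, so the numbers were not taken to pair tumours. Treated 1 correlated best with untreated 2 (0.24). With a replicate block 0 genes passed, and the direction differed for *Bid* 0.0087. With the block and the GC correction the direction differed for *Eda2r* 0.098, *Bcl2l1* -0.054 and *Casp4* 0.15.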
